A study of Mus musculus with 28 samples.

Results

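The comparison set mouse embryonic stem (ES) cells carrying DICER1 E1705K against the same cells carrying wild-type DICER1, with no endogenous Dicer in either. Its arrays were chosen by their titles: arrays 1 to 3 labelled Dicer-null ES-DICER1-E1705K and arrays 1 to 3 labelled Dicer-null ES-WT-DICER1. These are 6 of the 28 arrays of the series, and every gene on the array was compared. Both groups have the Dicer-/- genotype and received their transgene in the vector pLD-puro-ENvA. Fitted with them were 4 further Dicer-/- groups of 3 arrays each: DICER1 D1709A and DICER1 D1810Y in the same vector, eGFP in the same vector, and cells with no vector, which makes 18 arrays in the fit. The labels give neither the species of the DICER1 transgene nor the number of clones, and nothing says that the arrays of a group came from separate cultures, so p-values measure only the spread between these arrays.

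DICER1 cuts the hairpin precursors of microRNAs (miRNAs) into a duplex of a 5p and a 3p strand. Its RNase IIIb domain makes the cut that frees the 5p strand, and its RNase IIIa domain makes the cut at the 3p strand. E1705, D1709 and D1810 are metal-binding residues of the RNase IIIb domain and are recurrent mutation sites in DICER1-associated tumours. In mouse ES cells the miR-290 and miR-302 clusters supply abundant miRNAs that share a seed, the bases that pair with targets, and whose active strands are mostly 3p. The let-7 family, which acts through 5p strands, marks differentiating cells.

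The mature sequences below are those of the hairpins on which the results turn and of the families whose reported targets were examined. They are RefSeq sequences on GRCm38.p6, with the seed (bases 2 to 8) in capitals, and all 21 hairpin probe sets followed had a RefSeq entry. The first group shares the seed AAGUGCU and consists of 3p strands.
miR-302b-3p (chr3:127545275-127545297, plus strand): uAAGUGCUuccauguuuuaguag
miR-302d-3p (chr3:127545665-127545687, plus strand): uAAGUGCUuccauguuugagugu
miR-291a-3p (chr7:3218968-3218989, plus strand): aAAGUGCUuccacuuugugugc
miR-294-3p (chr7:3220691-3220712, plus strand): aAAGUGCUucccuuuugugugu
The second group consists of 5p strands with the seed AAAGUGC, which is the same run of letters displaced by one base.
miR-106a-5p (chrX:52742541-52742563, minus strand): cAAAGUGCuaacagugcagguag
miR-20b-5p (chrX:52742159-52742181, minus strand): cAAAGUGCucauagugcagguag
miR-17-5p (chr14:115043684-115043706, plus strand): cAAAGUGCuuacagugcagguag
The third pair has the seed AUUGCAC and lies in different clusters, miR-367 beside miR-302 on chromosome 3 and miR-363 beside miR-106a on chromosome X.
miR-367-3p (chr3:127545779-127545800, plus strand): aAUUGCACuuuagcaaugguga
miR-363-3p (chrX:52741697-52741718, minus strand): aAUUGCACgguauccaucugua
The last group is let-7, with the seed GAGGUAG on the 5p strand.
let-7f-5p (chr13:48537889-48537910, minus strand): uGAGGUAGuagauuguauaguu
let-7d-5p (chr13:48536078-48536099, minus strand): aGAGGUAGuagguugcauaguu
miR-98-5p (chrX:151913229-151913250, plus strand): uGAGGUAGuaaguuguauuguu

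A pair of whole hairpins shows what the RNase IIIb cut releases, with the 5p strand in capitals. The first is the hairpin with the highest rise in E1705K among the miRNA loci followed, and the second is the one with the deepest fall.
Mir302b (chr3:127545228-127545301, plus strand): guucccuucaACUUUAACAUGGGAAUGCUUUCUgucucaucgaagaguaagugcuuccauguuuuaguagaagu
Mirlet7f-1 (chr13:48537829-48537917, minus strand): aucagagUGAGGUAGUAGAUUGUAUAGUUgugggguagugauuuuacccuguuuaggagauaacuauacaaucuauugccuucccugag
In miR-302b the abundant strand lies in the part left of the hairpin after the capitals, and in let-7f-1 the capitals are the abundant strand itself.

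All values are log2 expression levels of Mouse Gene 1.0 ST arrays, a platform with several probes along each transcript, so a difference of 1 is a doubling. The medians of the 6 arrays lay between 7.22 and 7.25, and the median standard deviation (SD) of a gene within a group was 0.0578 in E1705K and 0.0444 in wild-type DICER1 arrays. Array 2 of E1705K deviated from its group mean together with array 2 of eGFP (r = 0.655) and of D1810Y (r = 0.684), across all genes tested. The deposited values also hold exact relations. The deviations of the first arrays of 5 groups, E1705K and wild-type DICER1 among them, sum to 0 within 0.000183 for every probe set. The means of the wild-type DICER1 arrays in the ENvA and in the PGKnvA vector, the PGKnvA arrays being used here only where all 28 arrays were fitted, are equal within 7.5e-05. Arrays of different groups are therefore not independent as deposited, and the p-values are approximate. The ES cell markers Pou5f1, Nanog and Sox2 were high on every one of the 6 arrays, with Pou5f1 at 12.73, 12.72 and 12.70 in E1705K arrays, against 12.59, 12.58 and 12.61 in wild-type DICER1 arrays. Dicer1 itself was at 9.24, 9.27 and 9.39 in E1705K arrays, against 9.26, 9.26 and 9.27 in wild-type DICER1 arrays (log2 change 0.04, adjusted p = 0.544 by limma). The deleted part of the gene and the transgene's species are not given in the labels, so this probe set does not check them.

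Between E1705K and wild-type DICER1, 7978 of 13962 genes tested differed at an adjusted p under 0.05 (limma with Benjamini-Hochberg adjustment over all genes tested, two-sided), a difference hereafter called passed. Of these, 4478 were higher in E1705K (32.1% of genes tested) and 3500 were lower (25.1%). With a change of at least 1.5-fold as well, 631 were higher (4.52%) and 425 were lower (3.04%). At 3-fold, 18 were higher and 14 were lower. Without array 2 of E1705K, eGFP and D1810Y, a choice made after seeing the data, 8043 genes passed. Most changes were small: the median size of a passing change was 0.28 on the log2 scale, and the median over all genes tested was 0.02.

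The miR-302 hairpins stood highest above wild-type DICER1 among the miRNA loci followed. The array holds 296 probe sets named for miRNA hairpins, which were read without the filter on low values. Mir302b was at 7.40, 7.06 and 7.52 in E1705K arrays, against 4.50, 4.32 and 4.38 in wild-type DICER1 arrays. All 3 E1705K arrays lay well above all 3 wild-type DICER1 arrays, a 7.61-fold difference (log2 change 2.93, SE 0.105, adjusted p = 1.76e-17 by limma). Mir302d was at 7.41, 7.18 and 7.41 in E1705K arrays, against 5.51, 5.40 and 5.36 in wild-type DICER1 arrays (log2 change 1.91). Mir302c rose by 2.63, Mir302a by 1.99 and Mir367, the last hairpin of that cluster, by 1.18, with no overlap between the groups for any of them. The share of all hairpin probe sets without overlap is not given here. The wild-type DICER1 values of the cluster lie below 6.42, the level that a gene's mean had to pass in the other tests, so these sizes may be understated. Larp7, the gene whose intron hosts the cluster, was at 11.33, 11.38 and 11.43 in E1705K arrays, against 11.46, 11.47 and 11.43 in wild-type DICER1 arrays, and did not pass (adjusted p = 0.212 by limma).

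A second cluster that rose is miR-106a to miR-363 on chromosome X. Mir363 was at 8.06, 7.81 and 8.18 in E1705K arrays, against 6.70, 6.56 and 6.79 in wild-type DICER1 arrays (log2 change 1.33, adjusted p = 6.82e-11 by limma). Its neighbours Mir20b and Mir106a rose by 0.78 and 0.64, and Mir19b-2 and Mir92-2 by 0.45 and 0.33. For Mir20b, Mir19b-2 and Mir92-2 both group means lie under the filter level of 6.42. For Mir106a the wild-type DICER1 mean does. The related cluster on chromosome 14 did not move that way: Mir18, Mir19a and Mir19b-1 fell by 0.28, 0.48 and 0.46, while Mir17 (−0.10) and Mir20a (−0.22) did not pass. The host transcript of that cluster, Mir17hg, fell by 0.35 (adjusted p = 2.64e-05 by limma).

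Of the 10 hairpin probe sets of the let-7 family, 4 were lower, 1 was higher and 5 did not pass. Among all 19946 symbols without the filter, a smaller share was lower (18.1%) and a larger share higher (23.2%). Mirlet7f-1 was at 5.86, 5.57 and 5.90 in E1705K arrays, against 7.04, 6.82 and 7.03 in wild-type DICER1 arrays (log2 change −1.18, adjusted p = 7.63e-08 by limma). Its E1705K mean lies under the filter level of 6.42. Mirlet7d was at 8.43, 8.17 and 8.35 in E1705K arrays, against 9.01, 8.96 and 9.01 in wild-type DICER1 arrays, and fell by 0.67. Mir98 fell by 0.57 and Mirlet7e by 0.19, and Mirlet7c-1 rose by 0.31 (adjusted p = 0.0195 by limma). Mirlet7a-1, which lies beside Mirlet7f-1, differed by 0.04 and did not pass. Outside these families, Mir421 rose by 0.90 and Mir7-1 fell by 0.64. Both group means of Mirlet7a-1 and of Mir421 lie under the filter level. Over all 296 hairpin probe sets, 28 were higher and 18 lower. Both are smaller shares than the 23.2% higher and 18.1% lower among all 19946 symbols without the filter. The other 250 did not pass, and 110 of the 296 lay above the filter level. The array does not separate a primary transcript from a precursor, and mature miRNAs were not measured.

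The miR-302 hairpins were lower in E1705K than in D1810Y. Mir302b averaged 7.33 in E1705K arrays, 7.37 in D1709A arrays, 8.88 in D1810Y arrays, 7.61 in eGFP arrays and 5.45 in arrays of cells with no vector. E1705K was lower than D1810Y for Mir302b by 1.55 (SE 0.105, adjusted p = 3.95e-11 by limma), for Mir302c by 1.75 and for Mir302d by 1.59. For Mirlet7d the difference from D1810Y was 0.03 and did not pass (adjusted p = 0.813). Against D1709A, Mir302b did not pass either (adjusted p = 0.814).

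**Figure D1:**
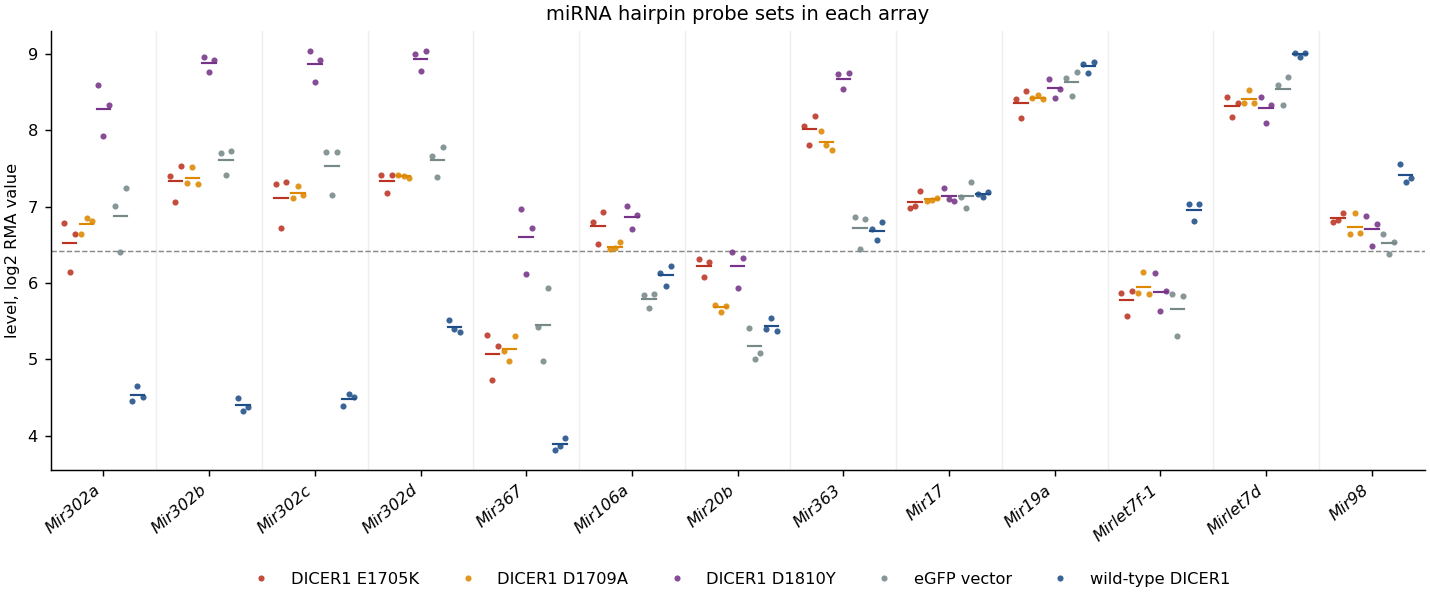
Levels of 13 hairpin probe sets (log2, vertical axis) in each array of E1705K, D1709A, D1810Y, eGFP vector and wild-type DICER1, with points for arrays, bars for group means and a dashed line at the filter level of 6.42. The miR-302 hairpins lie above wild-type DICER1 in all 3 E1705K arrays and the Mirlet7f-1 points lie below it.

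Apart from the miRNA hairpins, the iron exporter Slc40a1 (ferroportin) rose the most of the genes with no overlap between the groups. It was at 10.11, 10.20 and 10.23 in E1705K arrays, against 7.69, 7.56 and 7.53 in wild-type DICER1 arrays, a 6.00-fold rise (log2 change 2.59, SE 0.0517, adjusted p = 1.52e-22 by limma). It averaged 8.51 in eGFP arrays, so E1705K lay above both. Fndc3c1 was at 10.24, 10.14 and 10.24 in E1705K arrays, against 8.03, 7.85 and 7.85 in wild-type DICER1 arrays (4.91-fold). Ascl2, an imprinted transcription factor of the trophoblast and of intestinal stem cells, was at 9.42, 9.31 and 9.09 in E1705K arrays, against 7.41, 7.38 and 7.42 in wild-type DICER1 arrays (3.66-fold). The carbonic anhydrase Car4 was at 11.51, 11.39 and 11.40 in E1705K arrays, against 9.58, 9.45 and 9.56 in wild-type DICER1 arrays (3.74-fold), and averaged 6.55 in eGFP arrays. Here wild-type DICER1 stood between eGFP and E1705K.

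The other rises of the 14 largest, hairpins and predicted genes left out, were 3.01- to 4.32-fold. They include Slc27a2, a fatty acid transporter (4.32-fold), the endocytic receptor Lrp2 (3.74-fold), the kinase Pim2 (3.51-fold), the neuronal intermediate filament Ina (3.48-fold), the vitamin C transporter Slc23a1 (3.37-fold), Car3 (3.21-fold) and the interferon-induced GTPase Irgm1 (3.02-fold). Cysltr1 (3.99-fold), Prelid3a (3.24-fold) and Hs6st2 (3.01-fold) complete them. In 3 of the 14, Cysltr1, Irgm1 and Hs6st2, the wild-type DICER1 mean lies under the filter level. Set against eGFP, E1705K was higher for 12 of the 14 and lower for Slc23a1 and Irgm1. Of all 13962 genes tested, 8539 passed between E1705K and eGFP in either direction. The 14 were picked by their high E1705K values, so this count is not a separate result. Of the 14, 4 lie on chromosome X, which held 433 of the genes tested and 43 of the 631 that were higher at least 1.5-fold.

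The falls were led by A2m and Nab2. A2m, a protease inhibitor, was at 6.89, 7.17 and 7.05 in E1705K arrays, against 9.66, 9.51 and 9.43 in wild-type DICER1 arrays, a 5.64-fold fall (log2 change −2.49, SE 0.0857, adjusted p = 3.6e-18 by limma). Nab2, a corepressor that binds the early growth response (EGR) proteins and is itself induced by them, was at 8.38, 8.51 and 8.47 in E1705K arrays, against 10.91, 10.94 and 10.98 in wild-type DICER1 arrays, a 5.62-fold fall. The 2 groups did not overlap for either gene, which was a condition for being named. The eGFP arrays averaged 7.67 for A2m and 9.34 for Nab2, above E1705K and below wild-type DICER1.

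Nppb, which encodes the brain natriuretic peptide, was at 7.09, 7.16 and 7.14 in E1705K arrays, against 9.40, 9.33 and 9.44 in wild-type DICER1 arrays (4.79-fold lower). Phlda1 was at 7.88, 7.49 and 7.63 in E1705K arrays, against 9.69, 9.82 and 9.58 in wild-type DICER1 arrays (4.08-fold lower). Hbegf, an EGF-receptor ligand, was at 9.43, 9.45 and 9.54 in E1705K arrays, against 11.12, 11.12 and 11.15 in wild-type DICER1 arrays (3.15-fold lower). Nab2, Phlda1 and Hbegf are all induced by growth factor signalling. The remaining falls among the 14 largest were Pla2g4c (3.53-fold), Rpl39l (3.49-fold), Ankrd44 (3.34-fold), Pde8a (3.33-fold), Prelid2 (3.30-fold), Cpt1a (3.27-fold), Emp1 (3.17-fold), Kdelr3 (3.11-fold) and B4galnt2 (3.02-fold). Cpt1a brings fatty acids into mitochondria, Pde8a degrades cyclic AMP and Kdelr3 retrieves proteins to the endoplasmic reticulum. Rpl39l is close in sequence to Rpl39, so its probe set may read both, and the E1705K mean of Ankrd44 lies under the filter level. Against eGFP, E1705K was lower for 10 of these 14, higher for 2 and not separated for the other 2. Here too the genes were picked by their E1705K values, and 8539 of all 13962 genes passed against eGFP in either direction.

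**Figure D2:**
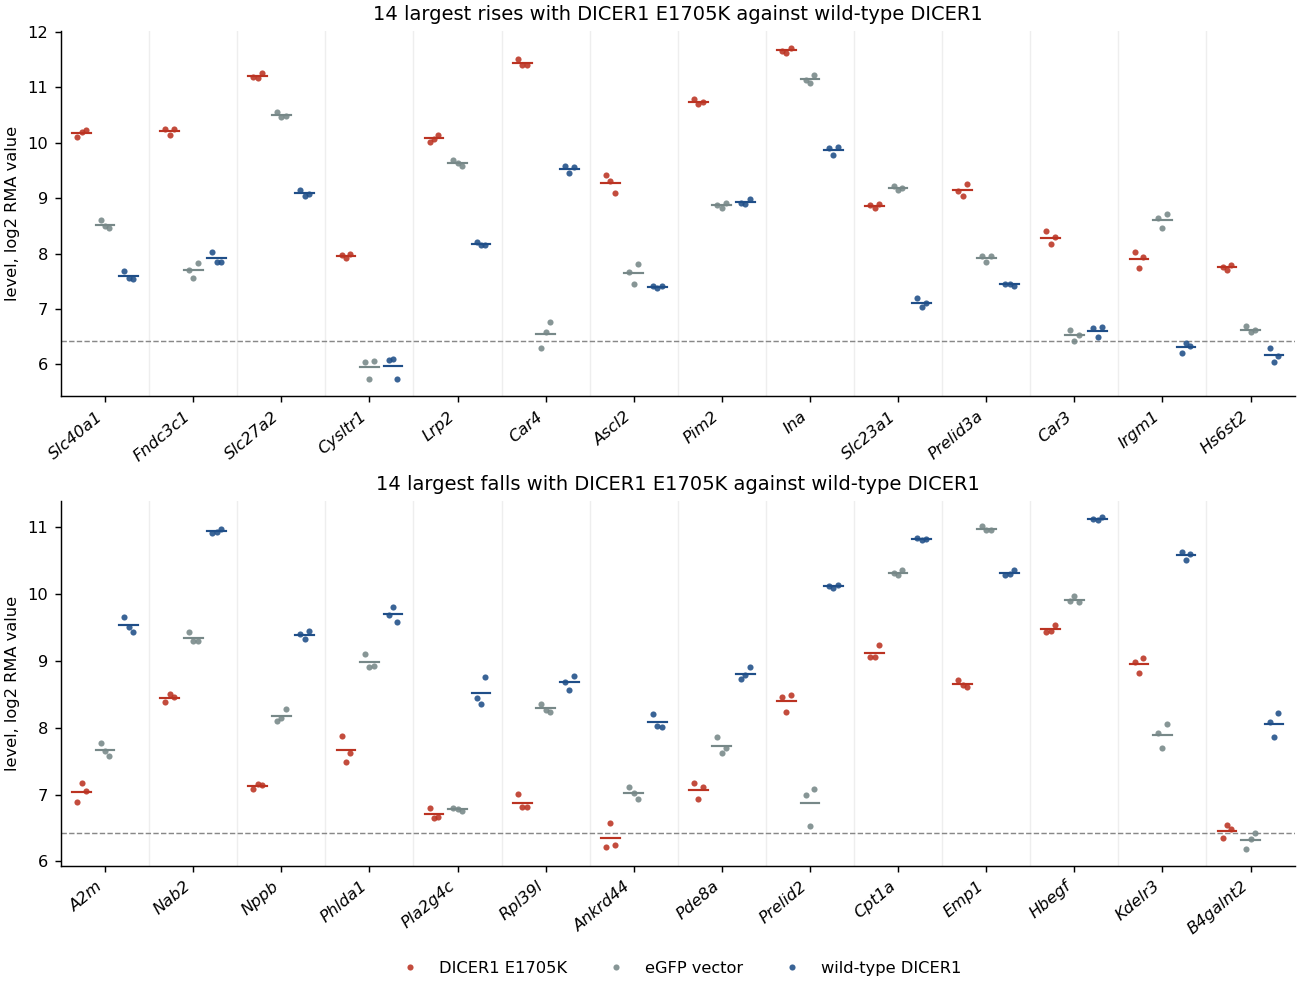
Levels (log2, vertical axis) of the 14 largest rises and the 14 largest falls in each array of E1705K, eGFP vector and wild-type DICER1, with points for arrays, bars for group means and a dashed line at the filter level of 6.42. For every gene the 3 E1705K points lie on one side of the 3 wild-type DICER1 points, which was a condition for being named.

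Most of the listed genes of ERK signalling and the immediate early response were lower in E1705K. These are the transcription factors and feedback inhibitors switched on within minutes to hours of growth factor signalling through ERK and serum response factor. Nab2, Phlda1 and Hbegf, described above, are among them. Of 31 listed genes, all tested, 22 were lower and 6 higher, with 13 lower and 1 higher at 1.5-fold. That is 71.0% lower and 19.4% higher, against 25.1% and 32.1% of all genes tested, and the median change was −0.38 against 0.02 over all genes. Without array 2 of E1705K, eGFP and D1810Y, 22 were lower and 8 higher. The mean level of the list was 9.14 to 9.18 in E1705K arrays, 9.03 to 9.06 in eGFP arrays and 9.67 to 9.69 in wild-type DICER1 arrays. It was 9.19 to 9.21 in D1709A arrays and 9.27 to 9.29 in D1810Y arrays, so all 3 mutants lay between eGFP and wild-type DICER1. The zinc finger factor Egr1 was at 8.23, 8.21 and 8.31 in E1705K arrays, against 9.60, 9.68 and 9.64 in wild-type DICER1 arrays (log2 change −1.39, adjusted p = 3.21e-17 by limma). Jun was at 9.06, 8.88 and 9.02 in E1705K arrays, against 10.06, 10.02 and 10.02 in wild-type DICER1 arrays, and Ccn1, a secreted matrix protein, at 10.57, 10.60 and 10.66 in E1705K arrays, against 11.73, 11.80 and 11.78 in wild-type DICER1 arrays. The groups did not overlap for any of the 3, but the share of all genes without overlap is not given here.

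The ERK phosphatase Dusp5 was at 9.07, 9.06 and 9.03 in E1705K arrays, against 10.25, 10.33 and 10.29 in wild-type DICER1 arrays (log2 change −1.23). Egr2 was at 6.31, 6.45 and 6.39 in E1705K arrays, against 7.24, 7.33 and 7.29 in wild-type DICER1 arrays (log2 change −0.90), with its E1705K mean just under the filter level. Fosb fell by 0.93 and the receptor tyrosine kinase inhibitor Spry4 by 0.84. Not all members fell: the related inhibitor Spry1 rose by 0.62, the immediate early gene Ier3 by 0.43, and Zfp36, which destabilises mRNA, did not pass (log2 change 0.11, adjusted p = 0.207). Srf, the factor that drives many of these promoters, fell by 0.30. Dusp5, Egr2, Jun, Srf and Zfp36 were named after their values were seen.

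**Figure D3:**
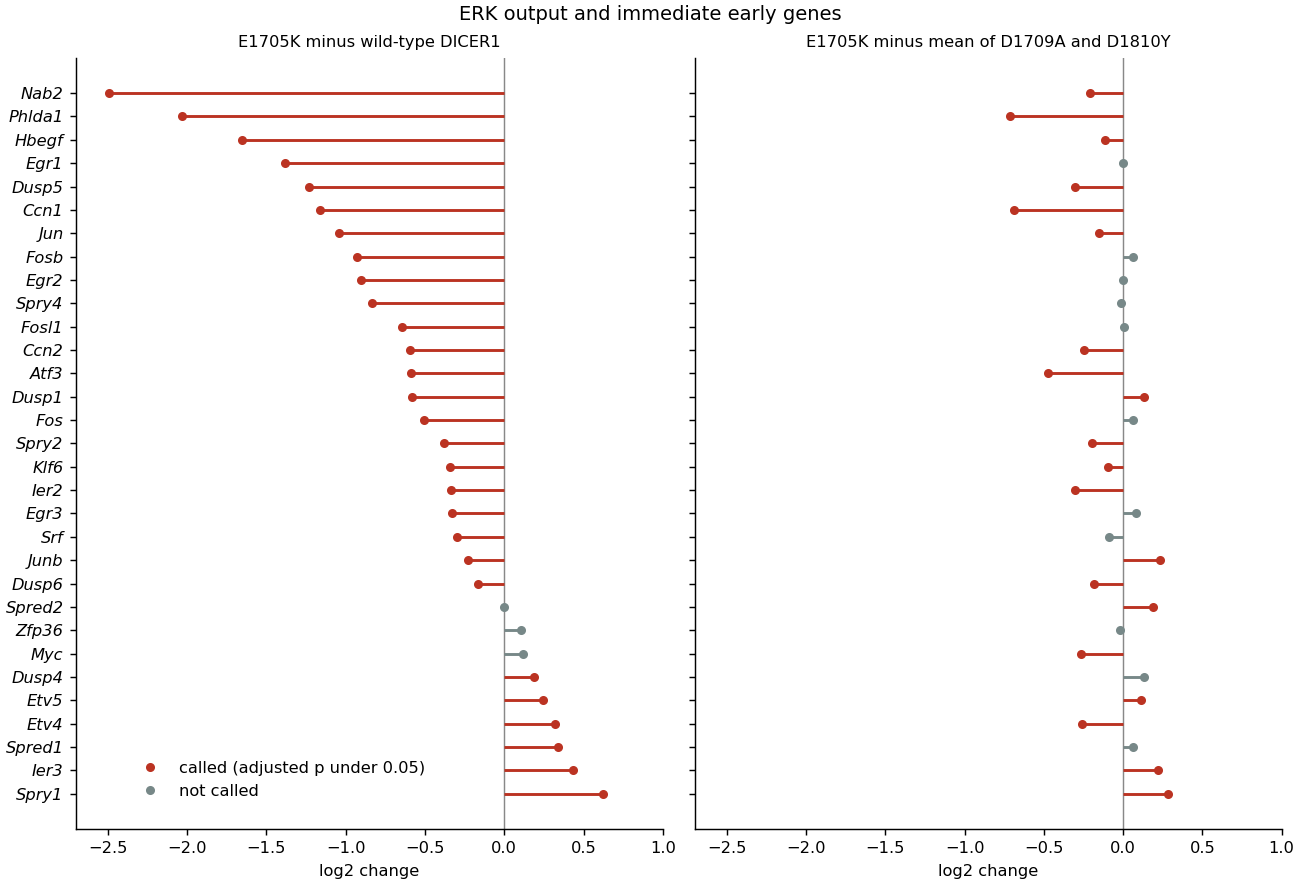
Log2 changes of the 31 ERK and immediate early genes in E1705K minus wild-type DICER1 (left) and in E1705K minus the mean of D1709A and D1810Y (right), with red points for genes that passed and grey points for the others. The left panel lies mostly below 0 and the right panel has a median of −0.02.

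The promoters of these genes were searched for the CArG box, the binding motif of serum response factor, within 250 bases before to 50 after each RefSeq start on GRCm38.p6, on both strands. It was found in 4 of the 20 list members with a promoter entry (Egr2, Dusp5, Srf and Zfp36), 20% of them, against 168 of 11074 tested genes with an entry (1.52%). The list was made of genes of ERK signalling and the immediate early response, some of them known to respond to serum response factor. Its share therefore follows at least in part from that choice. It says nothing about E1705K. Among genes lower at least 1.5-fold it was in 7 of 324 (2.16%), and among genes higher at least 1.5-fold in 7 of 486 (1.44%). The windows below show the motif in capitals with 25 bases on each side in all 4 list members that hold it, of which Zfp36 is the one that did not fall.
Dusp5 (chr19:53529038-53529107, plus strand, 2 motifs, starting 82 and 72 bases before the start): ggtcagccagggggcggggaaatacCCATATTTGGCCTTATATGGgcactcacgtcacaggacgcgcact
Egr2 (chr10:67537469-67537528, plus strand, motif starting 72 bases before one of 5 listed starts): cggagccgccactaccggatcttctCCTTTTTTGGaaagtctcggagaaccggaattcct
Srf (chr17:46556190-46556269, minus strand, 2 motifs, starting 82 and 62 bases before the start): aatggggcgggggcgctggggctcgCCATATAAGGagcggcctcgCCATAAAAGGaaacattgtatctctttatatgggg
Zfp36 (chr7:28379252-28379311, minus strand, motif starting 58 bases before the start): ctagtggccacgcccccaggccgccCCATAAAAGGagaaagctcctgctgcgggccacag
The EGR motif GCGTGGGCG, also on both strands, was in 11 of the 324 lower genes (3.4%), 4 of the 486 higher genes (0.823%), 0 of the 20 list members and 153 of all 11074 (1.38%). A match is a description of these letters and not of binding.

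Reported targets of the miRNA families did not move as one group. Of 25 tested genes known as targets of AAGUGCU miRNAs, the 3p strands of the miR-290 and miR-302 clusters, 8 were higher (32.0%, against 32.1% of all genes tested) and 10 lower (against 25.1% of all genes), with 4 higher at 1.5-fold and a median of −0.11. The Nodal inhibitor Lefty1 led them, at 10.57, 10.52 and 10.54 in E1705K arrays, against 9.09, 9.16 and 9.00 in wild-type DICER1 arrays (log2 change 1.46, adjusted p = 9.42e-20 by limma). It averaged 11.55 in eGFP arrays, so E1705K stood between wild-type DICER1 and the vector. Cyclin D1 (Ccnd1) rose by 1.15, Lefty2 by 0.93 and cyclin D2 (Ccnd2) by 0.83. The caspase Casp2 fell by 0.55 and the Hippo kinase Lats2 by 0.52.

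Of 22 tested targets of let-7, read by a 5p strand, 12 were higher (54.5%, against 32.1% of all genes tested) and 4 lower (18.2%, against 25.1%), with 5 and 1 at 1.5-fold and a median of 0.11. Mycn was at 11.64, 11.59 and 11.65 in E1705K arrays, against 10.72, 10.76 and 10.77 in wild-type DICER1 arrays (log2 change 0.88). Lin28a, which blocks let-7 maturation, was at 10.53, 10.64 and 10.59 in E1705K arrays, against 9.87, 9.84 and 9.93 in wild-type DICER1 arrays (log2 change 0.71), and its paralogue Lin28b rose by 0.61. Gatm, an enzyme of creatine synthesis, rose by 0.74, the chromatin protein Hmga2 fell by 0.42 and the matrix protein Thbs1 by 0.60. In eGFP arrays Lin28a averaged 8.315 and Gatm 7.26, below wild-type DICER1. Mycn averaged 11.55 and Lin28b 8.98 there, above wild-type DICER1. Whether let-7 has a part in these changes was not tested. Of 20 known targets of the AAAGUGC miRNAs, which are 5p strands, 7 were higher and 7 lower (3 and 1 at 1.5-fold, median −0.05). That is 35.0% each way, against 32.1% higher and 25.1% lower among all genes tested. Among these the apoptosis gene Bcl2l11 rose by 0.71, the kinases Limk1 and Map3k12 by 0.74 and 0.68, and the thioredoxin inhibitor Txnip fell by 0.80.

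Of 23 tested genes of the miRNA machinery, 7 were higher and 7 lower (30.4% each way, near the 32.1% and 25.1% of all genes tested), both LIN28 genes were higher at 1.5-fold, and the median was −0.04. Without E1705K array 2, 4 were lower. The DICER1 partner Tarbp2 rose by 0.42, Dgcr8 and Drosha, which make the precursor, rose by 0.39 and 0.36, and the uridylating enzyme Tut7 fell by 0.40. Of 26 genes of Nodal, TGF-beta and BMP signalling, 8 were higher and 8 lower (30.8% each way, also near the shares of all genes, with 4 and 1 at 1.5-fold and a median of −0.00). Besides the LEFTY genes, the SMAD partner Foxh1 was at 9.55, 9.43 and 9.50 in E1705K arrays, against 8.45, 8.30 and 8.44 in wild-type DICER1 arrays. The ligand Bmp4 rose by 0.79, although with all 28 arrays in the fit it no longer passed (adjusted p = 0.0551 by limma). The inhibitory Smad7, a TGF-beta target, fell by 0.84, and the ligand Nodal itself did not pass. In the G1-S list of 26 genes 11 were higher and 4 lower (3 and 1 at 1.5-fold, median 0.06), with Ccne2, the gene of a cyclin E, down by 0.59. That is 42.3% higher and 15.4% lower, against 32.1% and 25.1% of all genes tested. In that list 7 were higher without E1705K array 3, and also without wild-type DICER1 array 2. In the p53 and apoptosis list of 22, 8 were higher and 11 lower (2 higher at 1.5-fold, median −0.05), with Bak1 up by 0.62 and the ribonucleotide reductase subunit Rrm2b down by 0.54. The lower share of that list was well above the 25.1% of all genes tested. Its higher share, 36.4%, was near their 32.1%.

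More pluripotency genes were lower than higher in E1705K, and more genes of the primed epiblast were higher than lower. Of 27 tested pluripotency genes, 16 were lower (59.3%, against 25.1% of all genes tested) and 9 higher (33.3%, near the 32.1% of all genes), with 3 each at 1.5-fold and a median of −0.18. Tbx3, a naive-state factor, was at 9.41, 9.50 and 9.51 in E1705K arrays, against 10.69, 10.77 and 10.72 in wild-type DICER1 arrays (log2 change −1.26, adjusted p = 2.28e-19 by limma), while Utf1 rose by 0.92 and Dppa3 by 0.83. Nanog fell by 0.22, Sox2 fell by 0.12 and Pou5f1 rose by 0.12; with all 28 arrays in the fit, Sox2 (adjusted p = 0.242) and Pou5f1 (adjusted p = 0.0661) did not pass. The mean level of the pluripotency list was 11.20 to 11.25 in E1705K arrays, against 11.30 to 11.31 in wild-type DICER1 arrays.

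Of 18 tested primed epiblast and ectoderm genes, 11 were higher (61.1%, against 32.1% of all genes tested) and 2 lower (11.1%, against 25.1%), with 7 and 2 at 1.5-fold and a median of 0.41. The de novo DNA methyltransferase Dnmt3b was at 11.07, 11.04 and 11.11 in E1705K arrays, against 9.74, 9.74 and 9.79 in wild-type DICER1 arrays (log2 change 1.32). Pou3f1 (OCT6) was at 9.18, 9.08 and 9.20 in E1705K arrays, against 8.14, 8.25 and 8.08 in wild-type DICER1 arrays (log2 change 0.99), and N-cadherin (Cdh2) rose by 1.24. Fgf5, the classical primed marker, rose by 0.65 and the factor Sall2 by 1.31. The zinc finger genes Zic5 and Zic2 went the other way, by −0.75 and −0.62. In the DNA methylation list of 16, 10 were higher and 4 lower (3 and 1 at 1.5-fold, median 0.24), with Dnmt3a up by 0.86 and its cofactor Dnmt3l by 0.56, the histone methyltransferase Ehmt1 up by 0.69 and the demethylating enzyme Tet2 down by 0.65. The higher share of that list was 62.5%, against 32.1% of all genes tested, while its lower share was near their 25.1%. Fgf5, Pou3f1, Nanog, Pou5f1 and Sox2 were named after their values were seen.

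Of 20 tested imprinted genes, 11 were higher (55.0%, against 32.1% of all genes) and 5 lower (with 4 and 2 at 1.5-fold, median 0.21). Mest, expressed from the paternal allele, was at 12.19, 12.13 and 12.13 in E1705K arrays, against 11.00, 10.99 and 10.97 in wild-type DICER1 arrays (log2 change 1.16). The antisense transcript Airn fell by 1.06 and Plagl1 by 0.69; Airn overlaps Igf2r, and the labels do not say whether its probe set separates them. Of 14 tested germline genes, 8 were lower and 3 higher (57.1% and 21.4%, against 25.1% and 32.1% of all genes, with 3 and 2 at 1.5-fold, median −0.29). Dazl, a germ cell RNA-binding protein, was at 7.65, 7.58 and 7.74 in E1705K arrays, against 9.06, 8.86 and 8.93 in wild-type DICER1 arrays, and the synaptonemal gene Sycp3 and the retrotransposon repressor Tex19.1 fell by 0.85 and 0.81. Dppa3, in this list too, rose.

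**Figure D4:**
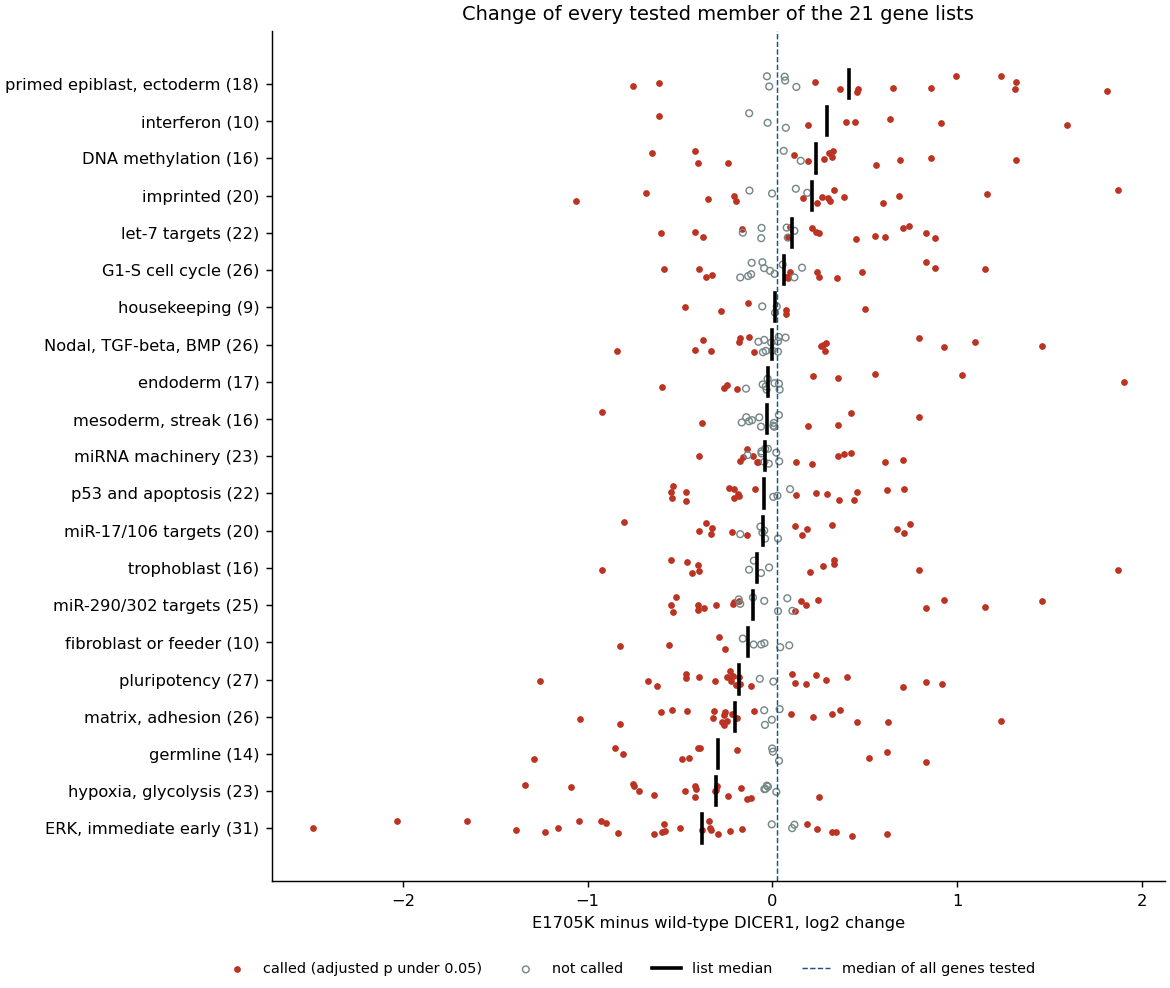
Log2 change in E1705K minus wild-type DICER1 for every tested member of 21 gene lists, with filled points for members that passed, open points for the others, a black mark at each list's median and a dashed line at the all-gene median of 0.02. The immediate early and hypoxia lists have their medians lowest, at −0.38 and −0.30, and the primed epiblast list highest, at 0.41.

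Of 23 tested genes that low oxygen induces or that act in glycolysis, 17 were lower in E1705K (73.9%, against 25.1% of all genes tested), 1 was higher and 5 did not pass (6 lower at 1.5-fold, median −0.30). The mitophagy receptor Bnip3 was at 10.89, 10.87 and 10.95 in E1705K arrays, against 12.27, 12.19 and 12.26 in wild-type DICER1 arrays (log2 change −1.34, adjusted p = 4.5e-17 by limma). It averaged 8.68 in eGFP arrays, so E1705K stood between wild-type DICER1 and the vector. The collagen hydroxylase P4ha1 fell by 1.09, the glycolytic enzyme Pfkp by 0.76, the oxidoreductase Ero1a by 0.75, Ndrg1 by 0.72 and the oxygen sensor Egln3 by 0.64. The glucose transporter Slc2a1 was the member that rose, by 0.25. With all 28 arrays in the fit Egln3 did not pass (adjusted p = 0.207 by limma).

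Of 26 tested matrix and adhesion genes, 15 were lower and 7 higher (57.7% and 26.9%, against 25.1% and 32.1% of all genes, with 3 and 2 at 1.5-fold and a median of −0.20). The basement membrane linker Nid1 was at 10.27, 10.28 and 10.33 in E1705K arrays, against 11.33, 11.35 and 11.32 in wild-type DICER1 arrays (log2 change −1.04), the hyaluronan receptor Cd44 fell by 0.83 and the laminin chain Lama5 rose by 0.63. Of the 16 listed fibroblast and feeder cell markers 10 were tested, of which 4 were lower (1 at 1.5-fold, and against 25.1% lower among all genes) and 6 did not pass, with a median of −0.13. Their mean level was 8.39 to 8.53 in E1705K arrays, 7.94 to 8.12 in eGFP arrays and 8.64 to 8.71 in wild-type DICER1 arrays. Pdgfrb fell by 0.83, Acta2 by 0.56, Fn1 by 0.26 and Col1a1 by 0.29, and Col1a1 no longer passed without E1705K array 1 or 3, or without wild-type DICER1 array 2 or 3 (adjusted p between 0.0543 and 0.102 by limma). Their part in the matrix result was not tested, and fewer cells of a type cannot be told apart from less RNA per cell in these bulk samples.

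Of 10 tested interferon-response genes, 12 further ones having no tested probe set, 6 were higher and 1 lower (3 and 1 at 1.5-fold, median 0.29). That is 60.0% higher and 10.0% lower, against 32.1% and 25.1% of all genes tested. Oasl2 was at 8.30, 8.30 and 8.38 in E1705K arrays, against 7.39, 7.43 and 7.42 in wild-type DICER1 arrays, the signal transducer Stat2 rose by 0.64, and the RNA-sensing kinase Eif2ak2 fell by 0.61. Markers of mesoderm (4 higher and 2 lower of 16, 1 each at 1.5-fold, median −0.03), endoderm (5 and 4 of 17, 2 and 1 at 1.5-fold, median −0.03) and trophoblast (6 and 6 of 16, 2 and 1 at 1.5-fold, median −0.08) changed in both directions. Both mesoderm shares lay under the 32.1% higher and 25.1% lower of all genes tested. The endoderm shares (29.4% and 23.5%) were near them, and the trophoblast shares (37.5% each way) were above them. Eomes, a mesoderm and trophoblast factor, fell by 0.92, Dab2, an endocytic adaptor of primitive endoderm, rose by 1.03, and the endoderm factor Gata6 fell by 0.60. Without E1705K array 2 the mesoderm list had 4 lower, and without E1705K array 1 the endoderm list had 2. The mean level of the endoderm list was 8.41 to 8.48 in E1705K arrays, against 8.29 to 8.31 in wild-type DICER1 arrays. For the trophoblast list it was 8.90 to 8.93 in E1705K arrays, against 8.87 to 8.91 in wild-type DICER1 arrays, and for mesoderm 7.52 to 7.62 in E1705K arrays, against 7.57 to 7.59 in wild-type DICER1 arrays. Among 9 tested housekeeping genes, 3 were higher and 3 lower (33.3% each way), all by under 1.5-fold (median 0.01), and 1 was higher without E1705K array 3.

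Chromosome X held the largest share of genes that were higher in E1705K. Of 433 tested genes assigned to chromosome X in GRCm38.p6, 43 were higher at least 1.5-fold (9.93%), against 4.52% of all genes and 6.13% on chromosome 3, the next highest share, while 14 were lower (3.23%). Chromosomal shares are descriptions, with no test. D1709A and D1810Y had 30 and 48 such genes above the same wild-type DICER1 arrays, which the 3 comparisons share.

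Set against the mean of the other ENvA mutants, D1709A and D1810Y, E1705K differed less. Of 13962 genes, 4395 passed, of which 2585 were higher (18.5%) and the rest lower (13% of genes tested), but at 1.5-fold only 20 were higher (0.143%) and 47 lower (0.337%). The split of small changes depends on scaling: with each array centred on its median, 1638 were higher and 2615 lower. With all 28 arrays in the fit 2252 genes passed, and without E1705K array 3 the count at least 1.5-fold higher was 13. On the lower side, Tagln, a smooth muscle actin-binding protein, was at 8.87, 8.97 and 9.06 in E1705K arrays, against averages of 10.00 in D1709A arrays and 10.07 in D1810Y arrays (log2 difference −1.07, SE 0.0438, adjusted p = 2.26e-15 by limma). Wild-type DICER1 arrays averaged 8.88, and E1705K did not pass against them (log2 change 0.09, adjusted p = 0.133). Cardiac alpha-actin (Actc1) was at 8.47, 8.47 and 8.28 in E1705K arrays, against averages of 9.04 in D1709A arrays and 9.96 in D1810Y arrays (log2 difference −1.09).

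Acta2, the smooth muscle actin, was lower by 0.72, the keratin Krt18 by 0.90 and the caveolin Cav1 by 0.82. The homeobox gene Meis2 was lower by 0.96 and the mitochondrial carrier Slc25a24 by 0.80. The matrix proteins Thbs1 and Ccn1 were lower by 0.76 and 0.69, Phlda1 by 0.71 and Plagl1 by 0.69. For Acta2, D1709A stood highest at 11.43, D1810Y averaged 10.55, and E1705K was lower than D1810Y by 0.28 and than D1709A by 1.17. Acta2 and Tagln are also on the fibroblast list, of which 2 members were lower and 1 higher in this comparison, with a median of 0.01. Its mean level was 8.39 to 8.53 in E1705K arrays, against 8.67 to 8.70 in D1709A arrays and 8.44 to 8.64 in D1810Y arrays, and its part in these differences was not tested. Tagln, Acta2 and Ccn1 are known targets of serum response factor. The same search gave no CArG box for them, through no match or no promoter entry. A part of serum response factor in these differences was not tested. Actc1 has a CArG box in its promoter, shown for comparison with those above.
Actc1 (chr2:114052888-114052947, minus strand, motif starting 47 bases before the start): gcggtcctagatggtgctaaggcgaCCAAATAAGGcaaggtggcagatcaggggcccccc

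On the higher side was Usp26, a testis-enriched deubiquitinase gene on chromosome X, at 7.26, 7.13 and 7.33 in E1705K arrays, against averages of 6.12 in D1709A arrays and 6.24 in D1810Y arrays (log2 difference 1.06, adjusted p = 8.02e-09 by limma). Wild-type DICER1 arrays averaged 7.24, and E1705K did not pass against them (log2 change 0.00, adjusted p = 0.976). Srgn, a proteoglycan core protein, was at 8.59, 8.23 and 8.58 in E1705K arrays, against averages of 7.20 in D1709A arrays and 7.76 in D1810Y arrays (log2 difference 0.99). Phf19, a Polycomb-associated protein, was higher by 0.88, and it was also 2.88-fold above wild-type DICER1. Fam183b was higher by 0.98.

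Of the 23 tested hypoxia and glycolysis genes, 13 were higher than in the other mutants (56.5%, against 18.5% of all genes), 1 was lower and 9 did not pass (2 higher at 1.5-fold, median 0.10 against 0.03 over all genes). Bnip3 was at 10.89, 10.87 and 10.95 in E1705K arrays, against averages of 9.96 in D1709A arrays and 10.24 in D1810Y arrays (log2 difference 0.80, adjusted p = 1.51e-12 by limma). Egln3 was at 9.85, 9.89 and 9.89 in E1705K arrays, against averages of 9.06 in D1709A arrays and 9.10 in D1810Y arrays (log2 difference 0.79). For both genes E1705K stood between the other mutants and wild-type DICER1, which averaged 12.24 for Bnip3 and 10.52 for Egln3. Of the 31 ERK and immediate early genes 14 were lower (45.2%, against 13% of all genes) and 6 higher than in the other mutants, with 2 lower at 1.5-fold and a median of −0.02. Of the 22 genes of the p53 list, 13 were lower (59.1%, against 13% of all genes). With all 28 arrays in the fit, 7 hypoxia genes were higher, 7 ERK and immediate early genes were lower and 6 p53 genes were lower than in the other mutants. All 12 genes named for this comparison by the fixed rule, and Thbs1, Ccn1, Acta2, Phlda1 and Plagl1, passed in the same direction under every alternative in which they were tested.

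**Figure D5:**
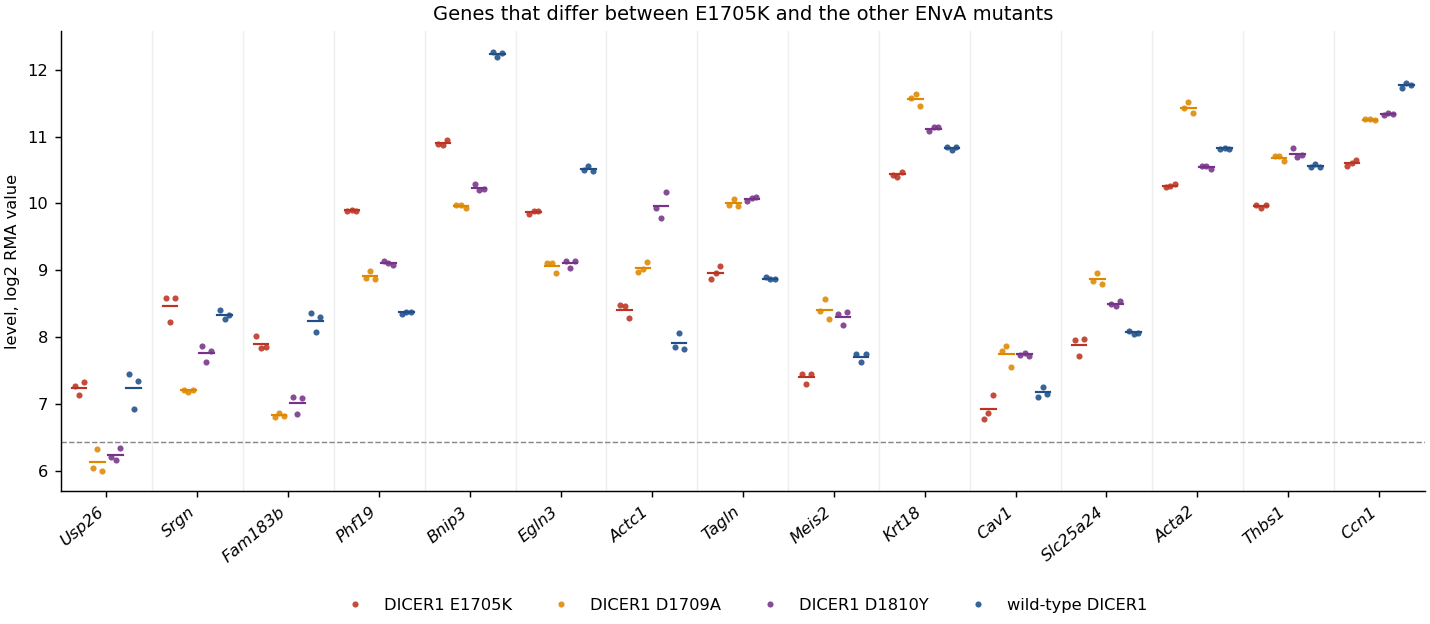
Levels (log2) in each array of E1705K, D1709A, D1810Y and wild-type DICER1 for the 12 genes named against the other ENvA mutants, and for Acta2, Thbs1 and Ccn1, with points for arrays and bars for group means. Tagln and Usp26 in E1705K lie at the level of wild-type DICER1, while Bnip3 and Egln3 lie between wild-type DICER1 and the other mutants.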

How the data were processed

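RNA was measured on 28 Affymetrix Mouse Gene 1.0 ST arrays, and the deposited values are log2 expression levels that the authors made by RMA (background correction, quantile normalization and probe summary) in Partek 6.6, per the submitters' processing notes, which give no order of steps or genome build. Of 35556 probe sets, 21797 have 1 gene symbol in the platform annotation, 1613 several and 12146 none. Each of 19946 symbols was read from 1 probe set, the one with the highest mean, and the 13962 genes whose mean over all 28 arrays reached the 30th percentile (6.42) were tested; 13921 of them matched RefSeq GRCm38.p6.

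A linear model with a coefficient for each of 6 groups (18 arrays, 12 residual degrees of freedom) was fitted with limma 3.58.1 in R 4.3.3, with a mean-variance trend, two-sided tests and Benjamini-Hochberg adjustment over all genes tested. Hairpin probe sets came from the same fit without the filter, except their differences from D1709A and D1810Y, which came from the filtered fit. The text names the 14 largest rises and falls with no overlap between the arrays of the groups, the 6 largest each way against the other ENvA mutants, and up to 4 changed members of each of 21 lists, leaving hairpins and predicted genes out of the first parts. Named beyond that rule, after their values were seen, were Dusp5, Egr2, Jun, Srf, Zfp36, Fgf5, Pou3f1, Larp7, Mir17hg, Nanog, Pou5f1, Sox2, Thbs1, Ccn1 and list members given with a log2 change alone. Members and lists were chosen with earlier results of these data known. Motif searches, counts and figures used Python 3.11.15.

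Same-numbered arrays of E1705K and D1810Y deviate together (r = 0.467, 0.684 and 0.211), and those of E1705K and eGFP (r = 0.287, 0.655 and 0.317), which pairs the numbers there by the data and not by the labels. With the number as a block in the 18 arrays, 4372 genes differed between E1705K and D1810Y, against 4340 without it; in their 6 arrays alone the counts were 5794 with the block and 3825 without. Against eGFP they were 8615 and 8539 in the 18 arrays, and 9143 and 8007 in the 6. The number of arrays limits the precision. Alternatives left out each array of the groups compared in turn or changed the arrays fitted, the filter, the centring, the trend, the probe set rule or the block.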

Additional observations from a re-analysis of the deposited data

Results flagged for a closer look

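The results below stood out because E1705K differed from the mean of D1709A and D1810Y, which carry mutations in the same domain, by a test of that difference (limma, adjusted over 13962 genes), and all of them passed in the same direction under every alternative in which they were tested. Higher in E1705K than in the other mutants were Usp26 (log2 difference 1.06), Srgn (0.99), Fam183b (0.98), Phf19 (0.88), Bnip3 (0.80) and Egln3 (0.79). Lower in E1705K were Actc1 (−1.09), Tagln (−1.07), Meis2 (−0.96), Krt18 (−0.90), Cav1 (−0.82) and Slc25a24 (−0.80). Also lower were Thbs1 (−0.76), Acta2 (−0.72), Phlda1 (−0.71), Plagl1 (−0.69) and Ccn1 (−0.69). Over the alternatives Actc1 ranged from −1.17 to −0.93.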

How the results depend on the processing

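No named gene that passed changed direction under the 24 alternatives, in those where it was tested. Between E1705K and wild-type DICER1, 6438 (arrays 2 and 3 of each group only) to 8392 genes passed, against 7978 as reported, and leaving out each E1705K and wild-type DICER1 array in turn gave 7331 to 7554 (4052 to 4395 higher, 3159 to 3488 lower, 1046 to 1075 at least 1.5-fold). The replicate numbers do not pair E1705K with wild-type DICER1 (r of deviations −0.0052, 0.2039 and −0.0658), and with the number as a replicate block 8033 genes passed in the 18 arrays and 8392 in the 6 arrays alone. Without array 2 of E1705K, eGFP and D1810Y, which was chosen after seeing the data, 8043 passed.

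Counts against the other ENvA mutants moved more. With all 28 arrays 2252 passed (1393 higher, 859 lower), and with arrays 2 and 3 only 2446 (1567 higher, 879 lower), against 4395 as reported and 4472 with the replicate block. Centring on the medians turned the balance to 1638 higher and 2615 lower, against 2585 higher as reported. At 1.5-fold 13 were higher with the filter at the median, where fewer genes are tested, and 13 to 27 when each array of E1705K, D1709A and D1810Y was left out, with 13 without E1705K array 3. Leaving out D1709A and D1810Y arrays was added after seeing the data; over all these 3534 to 4354 passed. Apart from the filter, the cause was not tested. Calls of named genes against wild-type DICER1 were the same in 2035 checks, lost in 21 and gained in 8; against the other mutants they were the same in 2052, lost in 107 and gained in 21. With all 28 arrays the lists compared with wild-type DICER1 had 2 lower miRNA machinery genes, 7 higher G1-S genes, 4 higher p53 genes, 1 higher mesoderm gene and 1 higher housekeeping gene. Over all genes tested that fit had 3812 higher and 2890 lower, against 4478 and 3500 as reported. The ERK and immediate early list had 22 lower members under every alternative except the filter at the median, where fewer were tested. Changes in probe sets near or under the filter level, such as the miR-302 hairpins in wild-type DICER1 cells, are limited by signal over background.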
